A study of Mus musculus with 21 samples.

Results

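Claudins, connexins and cadherins are the membrane proteins from which epithelial and mesenchymal cells build tight, gap and adherens junctions. All genes of the expression table whose symbol is *Cldn*, *Gja*, *Gjb*, *Gjc*, *Gjd*, *Gje*, *Cdh* or *Tjp* followed by a number were taken, together with *Ocln* and *F11r*. This gave 73 of 23983 genes, namely 25 claudins, 20 connexins, 23 cadherins and 5 tight junction partners, among them *Ocln*, *F11r* and *Tjp1*. Protocadherins and other relatives with different symbols were not included.

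Their expression was measured by RNA-seq in 9 mouse libraries, 1 for each condition. Notochord progenitors (NotoPs) and paraxial mesoderm progenitors (MPs) were sorted from the pooled caudal ends of E8.5 (Theiler stage 12) and E9.5 (Theiler stage 16) embryos as Noto+/T+/Foxa2+ and T+/Noto-/Foxa2- cells, and trunk notochord as T+/Noto+/Foxa2+ cells from trunk tissue of both stages. These embryos came from F1G4 (C57BL/6N x SV129) embryonic stem cells that carry 3 reporter BACs, T::H2B-Venus, Noto::H2B-mCherry and Foxa2::H2B-mTurquoise. The labels name tetraploid complementation as the route to the embryos and the study's text diploid aggregation, but every sorted population was gated on a reporter of the line. The other 3 libraries came from cultures of a different F1G4 line, in which the irTA transactivator of a T::H2B-mCherry-T2A-irTA BAC drives TRE::Foxa2-IRES-EGFP from Rosa26 once doxycycline is added, and a second BAC, Noto::H2B-mTurquoise, reports *Noto*. All 3 cultures received 10 ng/ml bFGF up to day 3 and CHIR99021, a GSK3 inhibitor, from day 2. NMPdiff cells, neuromesodermal progenitors, were sorted as T+/Noto- on day 3, at a labelled CHIR99021 dose of 5 µM. MPdiff cells were sorted as T+/Noto- on day 4, and NotoPdiff cells as Noto+/T+ on day 4 after 1 ng/ml doxycycline from day 2. The NotoPdiff state therefore rests on a *Foxa2* transgene that is active only where *T* is, and *Foxa2* stood at 95.5 FPKM in NotoPdiff against 1.22 in MPdiff and 12.5 in NMPdiff. FPKM, the fragments per kilobase of transcript scaled to the mapped fragments of a library, allows levels of different genes to be set side by side.

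Claudins polymerise into the strands that seal neighbouring epithelial cells, occludin (*Ocln*) and JAM-A (*F11r*) lie in the same strands or beside them, and the ZO proteins encoded by *Tjp* genes tie them to actin. Connexins assemble into channels through which small molecules pass between cells. Classical cadherins bind their own kind across the cell gap and are linked to actin by catenins, and epithelial cells that become mesenchymal typically replace E-cadherin (*Cdh1*) by other cadherins. The notochord is a rod of adhesive mesodermal cells, and in the mouse its progenitors form an epithelial plate at the node.

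FPKM multiplied by transcript length came in whole steps, so that the number of sequenced fragments behind a value, called reads here, could be recovered for 45 of the 73 genes. These steps imply totals of 385342 reads (E8.5 MP) to 2186856 (E9.5 MP) for the embryonic libraries, and 20539860 to 27904110 for the cultured ones. The study lists more de-duplicated mapped reads for each embryonic library. The E8.5 MP library, which also came from the fewest cells, had 13945 genes (58.1%) at 0, against 10719 to 12407 in the other embryonic libraries. For trunk notochord the study lists fewer sorted cells and a wider range of somite numbers than for NotoPs of the same stage. With 1 library per condition no difference has a replicate check, and no SD or p-value is given. Intervals are exact 95% intervals of read counts, cover counting error only, and compare these libraries rather than the conditions. A gene was called higher or lower at a difference of at least 3-fold after 1 was added to both FPKM values, which understates changes of low genes. Embryonic and cultured libraries were sequenced on different instruments, and no fold is given between them. In sorted pools, fewer cells that express a gene and less RNA per cell cannot be told apart.

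The sorted populations carried the genes they were sorted for. The 6 notochord genes checked (*T*, *Noto*, *Foxa2*, *Shh*, *Chrd* and *Nog*) summed to 1391 (E8.5) and 1180 (E9.5) FPKM in NotoPs, 1049 and 1136 in trunk notochord, and 76.1 and 163 in MPs, where *Noto* was at 0. In culture they summed to 421 in NMPdiff, 592 in NotoPdiff and 29.1 in MPdiff cells. *T* alone stood at 406, 375 and 25.8 FPKM in these cultures, and at 74.8 and 160 in MPs. *Noto*, *Shh*, *Chrd* and *Nog* were at 0.515, 0, 1.05 and 1.16 FPKM in NMPdiff cells, against 22.5, 30.2, 28.5 and 40.1 in NotoPdiff cells. Genes of other cell types were also present. A list of 6 mesoderm progenitor genes summed to 147 and 132 FPKM in NotoPs, 173 and 334 in MPs, 39.6 and 14.0 in trunk notochord, and 95.7, 87.1 and 164 in NMPdiff, NotoPdiff and MPdiff cells. Its member *Tbx6* was at 44.0 and 27.8 FPKM in NotoPs and 39.3 and 67.2 in MPs, and both *Tbx6* and *Msgn1* were at 0 in trunk notochord. Of 7 gut endoderm genes, 6 reached 1 FPKM in E8.5 MPs and in trunk notochord at both stages, with sums of 87.5, 63.1 and 142 FPKM. *Afp* was at 62.2 FPKM in E8.5 MPs and 95.7 in E9.5 trunk notochord, and at 0 in NotoPs and E9.5 MPs. A list of 8 surface ectoderm genes was led by *Perp*, *Wnt6* and *Grhl3* and summed to 32.7 and 25.0 FPKM in NotoPs, 2.80 and 1.48 in MPs, 19.7 and 15.1 in trunk notochord, and 24.6, 30.5 and 9.07 in NMPdiff, NotoPdiff and MPdiff cells, while its keratins *Krt5* and *Krt14* were at 0 in all 6 embryonic libraries. The other keratin of the list, *Krt15*, was at 0.548 FPKM and *Trp63* at 0.205 in E8.5 NotoPs, and both at 0 in the other 5. Of 8 endothelial genes none exceeded 7.55 FPKM in any library, and the sum of 8 blood genes stayed at or below 2.27 FPKM. The part that mesoderm, endoderm or ectoderm cells play in the values below was not tested.

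Of the 73 junction genes, 13 reached 20 FPKM in at least 1 library. The 9 genes *Cdh9*, *Cdh16*, *Cdh19*, *Cdh26*, *Cldn13*, *Cldn14*, *Cldn16*, *Cldn17* and *Gjb1* were at 0 in all 9 libraries, 27 more never reached 1 FPKM, and 24 peaked between 1 and 20 FPKM. Only 12 genes held at least 1 FPKM in every library. Among them were the claudins *Cldn6*, *Cldn12* and *Cldn25*, the partners *F11r* and *Tjp1*, the connexins *Gja1* and *Gjc1*, and the cadherins *Cdh2*, *Cdh3*, *Cdh11* and *Cdh24*. Each library expressed 17 to 27 of the 73 at 1 FPKM or more, with the fewest in both MP libraries and the most in E8.5 trunk notochord.

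**Figure D1:**
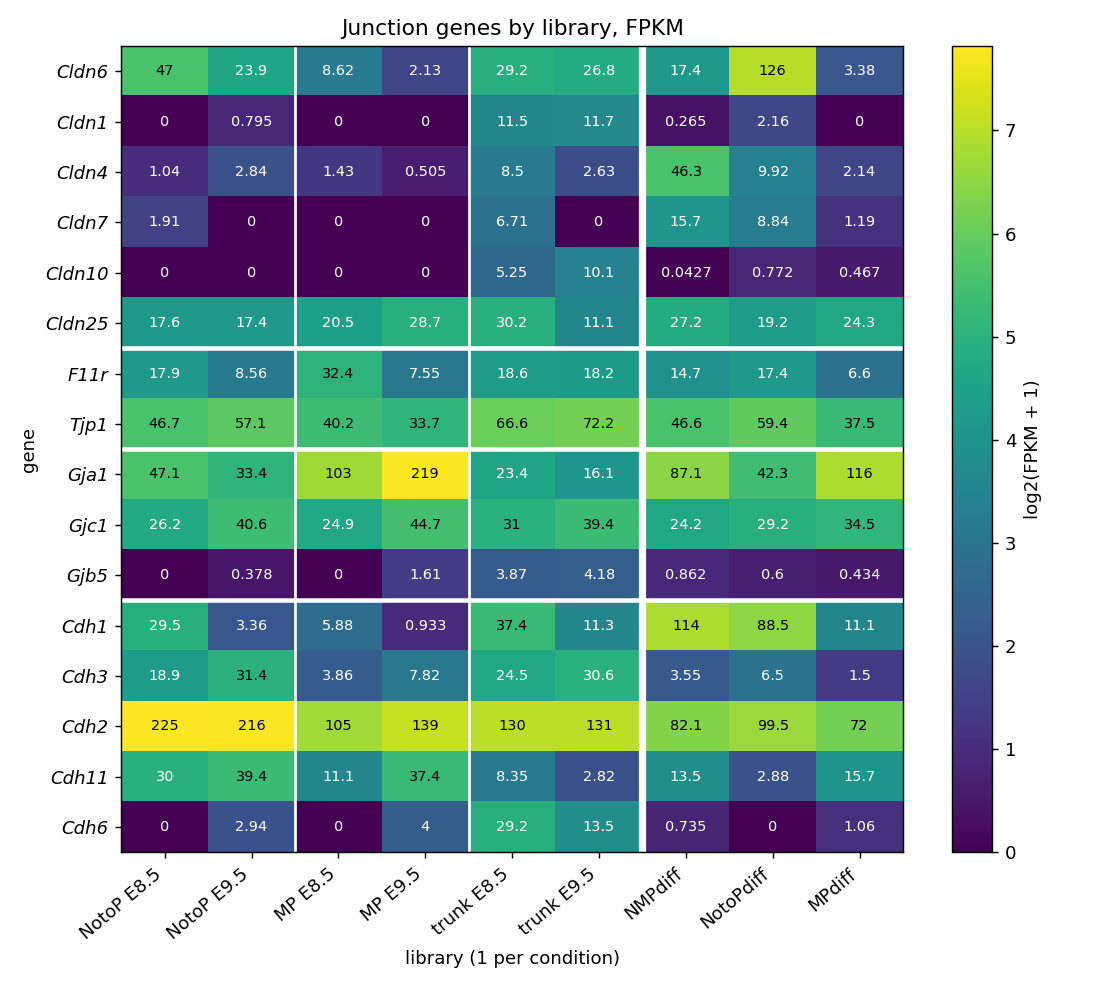
FPKM of named claudin, tight junction partner, connexin and cadherin genes (vertical axis, in that order) in the 9 libraries (horizontal axis), printed in each cell and coloured by log2(FPKM + 1). *Cldn6*, *Cdh1* and *Cdh3* are brighter in the NotoP than in the MP column of the same stage, *Gja1* is brightest in E9.5 MPs at 219 FPKM, and *Cldn1*, *Cldn10* and *Cdh6* are highest in the trunk notochord columns.

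*Cldn6*, a claudin of early embryonic epithelia, marked notochord progenitors over mesoderm progenitors at either stage. It stood at 47.0 FPKM (75 reads) in E8.5 NotoPs, 23.9 (56 reads) in E9.5 NotoPs, 8.62 (5 reads) in E8.5 MPs and 2.13 (7 reads) in E9.5 MPs. Trunk notochord had 29.2 and 26.8 FPKM, and the cultured cells 17.4 (NMPdiff), 126 (NotoPdiff) and 3.38 (MPdiff). In the embryo all 4 notochord libraries lay above both MP libraries, and in culture NotoPdiff cells had the highest and MPdiff cells the lowest value. NotoP exceeded MP 5.45-fold (interval 2.24 to 17.3) at E8.5 and 11.3-fold (5.12 to 29.3) at E9.5. Trunk notochord and NotoPs differed by less than counting error at both stages, at 0.622-fold (0.360 to 1.03) and 1.12-fold (0.610 to 1.96). In culture *Cldn6* was 37.3-fold higher (31.1 to 45.3) in NotoPdiff than in MPdiff cells and 7.24-fold higher (6.69 to 7.85) than in NMPdiff cells. *Cldn9*, a close relative that lies beside *Cldn6* in the genome, was at 11.1 FPKM (17 reads) in E8.5 NotoPs and at most 4.94 in every other library, with 38 reads in NotoPdiff, 2 in NMPdiff and 0 in MPdiff cells.

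T and Foxa2 binding was described by ChIP-seq of bulk day 4 cultures grown with doxycycline and enriched for NotoPdiff cells, with 6875 T peaks and 22684 Foxa2 peaks. A peak was given to a gene when it lay within 5 kb of the gene start or in the gene body. *Cldn6* (mm10, chr17:23679249-23682446, plus strand) had 1 T peak (chr17:23677418-23677808), with a summit 1635 bp upstream of the gene start and a fold enrichment of 7.65, near the median of 7.45 over all T peaks. No Foxa2 peak met the rule at *Cldn6*. The 151 bp around the T summit (chr17:23677539-23677689, plus strand letters) are shown because this was the only T peak within 5 kb of the start of an expressed claudin. They hold no copy of GGTGTGA, the core of the T-box site bound by T, on either strand, and 10.5% of all T summit windows of this length hold one.
Cldn6 T summit: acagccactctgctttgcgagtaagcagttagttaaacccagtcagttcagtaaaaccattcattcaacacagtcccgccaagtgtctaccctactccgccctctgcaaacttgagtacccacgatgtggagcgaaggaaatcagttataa

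*Cldn4* and *Cldn7*, claudins of simple epithelia, were highest in NMPdiff and lowest in MPdiff cells among the cultures. *Cldn4* was at 46.3 FPKM in NMPdiff, 9.92 in NotoPdiff and 2.14 in MPdiff cells. In the embryo it was at 1.04 and 2.84 FPKM in NotoPs, 1.43 and 0.505 in MPs and 8.5 and 2.63 in trunk notochord, on 1 to 8 reads per library. *Cldn7* was at 15.7, 8.84 and 1.19 FPKM in the same cultures, at 1.91 in E8.5 NotoPs, 6.71 in E8.5 trunk notochord and 0 in the other 4 embryonic libraries. In the embryo both genes were thus highest in E8.5 trunk notochord. NMPdiff exceeded MPdiff cells 21.7-fold (17.6 to 27.1) for *Cldn4*, and NotoPdiff exceeded them 4.64-fold (3.67 to 5.92). For *Cldn7* the FPKM ratios were 13.2 and 7.40. Neither gene had a T or Foxa2 peak by the rule.

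*Cldn1* and *Cldn10* had their highest embryonic values in trunk notochord. *Cldn1*, a claudin of epidermis and many other barriers, was at 11.5 FPKM (17 reads) and 11.7 (16 reads) in E8.5 and E9.5 trunk notochord, at 0.795 (4 reads) in E9.5 NotoPs, and at 0 in E8.5 NotoPs and both MP libraries. It was at 0.265 FPKM in NMPdiff, 2.16 (144 reads) in NotoPdiff and 0 in MPdiff cells. With 0 replaced by a floor of 3 reads, trunk notochord was 13.2-fold above NotoPs at E8.5, a value without an interval. At the later stage it was 14.8-fold higher (4.76 to 60.7). By the same floor NotoPdiff cells were at least 53.8-fold above MPdiff cells. *Cldn10*, whose isoforms form ion-selective pores, was at 5.25 and 10.1 FPKM in trunk notochord, and at 0 in the other 4 embryonic libraries. These trunk values rest on about 2.00 to 2.83 and 3.54 to 5.01 reads, depending on the transcript, and 3 reads would have given 2.39 FPKM in E8.5 NotoPs and 1.63 in E9.5 NotoPs. In E8.5 MPs 3 reads would have given 6.56 FPKM, above the E8.5 trunk value, so a level like that of trunk notochord was not detectable there. *Cldn10* reached 0.772 FPKM in NotoPdiff, 0.467 in MPdiff and 0.0427 in NMPdiff cells.

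*Cldn10* (chr14:118787908-118875489, plus strand) had 4 Foxa2 peaks, with fold enrichments of 3.79 to 6.43, all below the median of 7.19 over all Foxa2 peaks. The nearest summit lay 160 bp upstream of the gene start, with a fold enrichment of 5.29, and its 151 bp window (chr14:118787673-118787823, plus strand letters) is shown as the Foxa2 summit closest to the start of a named claudin. It holds neither TGTTTAC nor TATTTAC, the forkhead motifs searched on both strands, which occur in 23.1% of all Foxa2 windows. *Cldn1* had 1 Foxa2 peak, 13662 bp into the gene, with a fold enrichment of 4.96.
Cldn10 Foxa2 summit: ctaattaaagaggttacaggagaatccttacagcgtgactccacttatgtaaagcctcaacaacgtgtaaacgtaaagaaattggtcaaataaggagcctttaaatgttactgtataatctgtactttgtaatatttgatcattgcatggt

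*Cldn25* and *Cldn12* varied little. The gene listed as *Cldn25* ranged from 11.1 FPKM in E9.5 trunk notochord to 30.2 in E8.5 trunk notochord, with 17.6 and 17.4 in NotoPs, 20.5 and 28.7 in MPs and 19.2 to 27.2 in culture. Its symbol is an older name of more than 1 RefSeq gene, *Cldnd1* among them, so the gene behind it is uncertain, and it was left without a genome position. *Cldn12* ranged from 5.31 FPKM in E9.5 NotoPs to 18.4 in NotoPdiff cells. Summed over all 25 claudins, E8.5 and E9.5 NotoPs had 95.8 and 54.6 FPKM, MPs 43.6 and 46.9, trunk notochord 118 and 79.2, NMPdiff 130, NotoPdiff 191 and MPdiff 48.6. Without *Cldn25* the sums of both MP libraries were 23.2 and 18.2 and that of MPdiff cells 24.3, and *Cldn6* made up 60.0% and 64.5% of the rest in NotoPs and 73.4% in NotoPdiff cells, against 11.7% to 37.2% in MPs and 13.9% in MPdiff cells. *Cldn12* then led the claudins in both MP libraries and in MPdiff cells, and *Cldn4* led in NMPdiff cells.

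**Figure D2:**
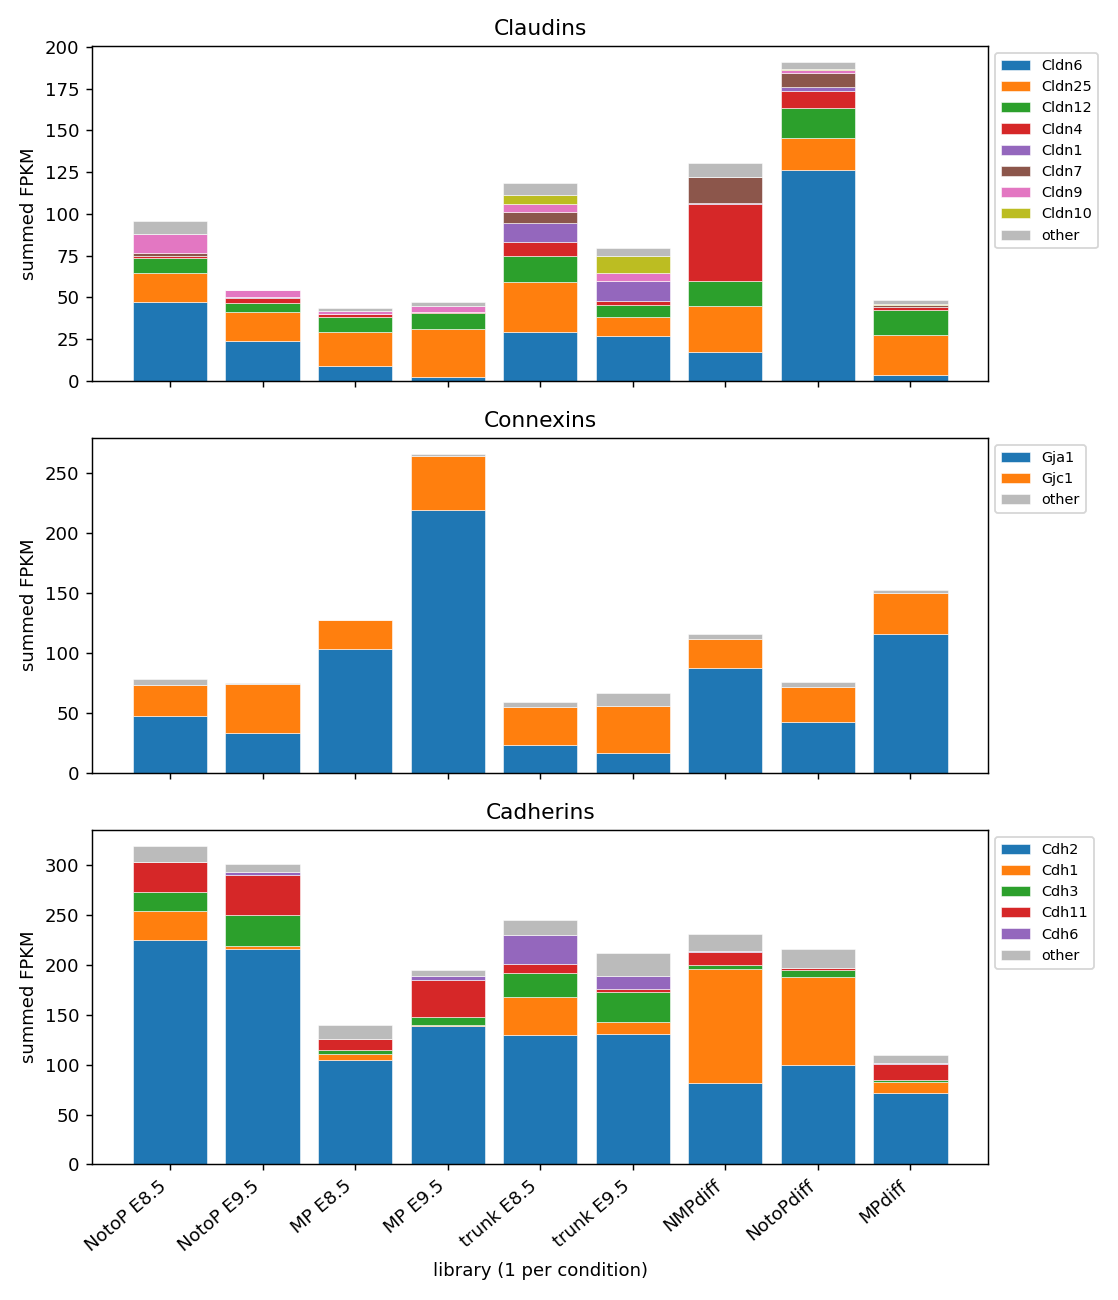
Summed FPKM (vertical axis) of the claudins, connexins and cadherins in each library (horizontal axis, 1 per condition), with bars stacked by gene and all remaining genes of the family in grey. *Cldn6* fills much of the claudin bar of NotoPs and NotoPdiff cells, *Gja1* makes up 82.4% of the connexin bar of E9.5 MPs, and *Cdh2* is the largest segment of every cadherin bar except that of NMPdiff cells, where *Cdh1* holds 49.5%.

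The partners of the claudins differed widely in level. *Tjp1* (ZO-1) was at 46.7 and 57.1 FPKM in NotoPs, 40.2 and 33.7 in MPs, 66.6 and 72.2 in trunk notochord, and 46.6, 59.4 and 37.5 in NMPdiff, NotoPdiff and MPdiff cells. Among the embryonic libraries it was highest in both of trunk notochord, but no comparison reached 3-fold. *Tjp3* (ZO-3) never exceeded 1.09 FPKM. *Ocln* was low, at 0 to 1.01 FPKM in the embryo, and in culture at 2.59 (231 reads) in NMPdiff, 5.23 (343 reads) in NotoPdiff and 1.16 (85 reads) in MPdiff cells. NotoPdiff exceeded MPdiff cells 4.52-fold (3.55 to 5.80) in *Ocln* reads, although the difference stayed under 3-fold once 1 FPKM was added.

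*F11r*, the immunoglobulin-like adhesion molecule JAM-A, did not separate notochord from mesoderm progenitors in the same way at both stages. It was at 17.9 FPKM (47 reads) in E8.5 NotoPs, 8.56 (33 reads) in E9.5 NotoPs, 32.4 (31 reads) in E8.5 MPs, 7.55 (41 reads) in E9.5 MPs, 18.6 and 18.2 in trunk notochord, and 14.7, 17.4 and 6.60 in NMPdiff, NotoPdiff and MPdiff cells. MPs exceeded NotoPs 1.82-fold (1.11 to 2.92) at E8.5, while at E9.5 NotoP over MP was 1.13-fold (0.694 to 1.84). Gut endoderm genes summed to 87.5 FPKM in the E8.5 MP library, which had the highest *F11r* value. Their sum was highest in E9.5 trunk notochord, at 142 FPKM, where *F11r* was at 18.2. The part of endoderm cells in the *F11r* values was not tested. In culture NotoPdiff exceeded MPdiff cells 2.64-fold (2.34 to 2.98). *F11r* (chr1:171437535-171464603, plus strand) had 1 Foxa2 peak, 13900 bp into the gene, with a fold enrichment of 6.05. Its 151 bp window (chr1:171451360-171451510, plus strand letters) is shown because it holds a forkhead motif, TATTTAC on the minus strand, in capitals.
F11r Foxa2 summit: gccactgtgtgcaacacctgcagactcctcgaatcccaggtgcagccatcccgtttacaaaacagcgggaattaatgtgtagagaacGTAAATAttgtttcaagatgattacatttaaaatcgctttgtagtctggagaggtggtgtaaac

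Connexin expression was carried by *Gja1* and *Gjc1*. *Gja1*, which encodes the most widely expressed connexin, was higher in mesoderm than in notochord cells. It stood at 47.1 FPKM (155 reads) and 33.4 (161 reads) in E8.5 and E9.5 NotoPs, 103 (123 reads) and 219 (1488 reads) in MPs, and 23.4 (33 reads) and 16.1 (21 reads) in trunk notochord. Cultured cells had 87.1 FPKM (NMPdiff), 42.3 (NotoPdiff) and 116 (MPdiff). At each stage the order was MP, NotoP, trunk notochord. MPs exceeded NotoPs 2.18-fold (1.71 to 2.79) at E8.5 and 6.56-fold (5.57 to 7.77) at E9.5, and NotoPs exceeded trunk notochord 2.01-fold (1.38 to 3.03) and 2.08-fold (1.31 to 3.45). In culture MPdiff exceeded NotoPdiff cells 2.73-fold (2.62 to 2.86). Only the E9.5 comparison passed 3-fold.

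*Gjc1*, the other connexin with at least 1 FPKM in every library, ranged from 24.2 FPKM in NMPdiff cells to 44.7 in E9.5 MPs and passed 3-fold in no comparison. With *Gjc1* nearly level, *Gja1* over *Gjc1* was 4.14 and 4.90 in MPs, 1.80 and 0.823 in NotoPs, and 0.753 and 0.408 in trunk notochord. *Gja1* made up 80.5% and 82.4% of the summed connexin FPKM in MPs, 60.2% and 44.5% in NotoPs, 39.5% and 24.2% in trunk notochord, and 75.5%, 56.1% and 76.0% in NMPdiff, NotoPdiff and MPdiff cells. The summed connexin level was highest in E9.5 MPs, at 266 FPKM, and lowest in E8.5 trunk notochord, at 59.2. *Gja1* and *Gjc1* had Foxa2 peaks but no T peak, 2 in *Gja1* with fold enrichments of 6.65 and 11.8, and 1 at *Gjc1* with a summit 5098 bp upstream of the gene start and a fold enrichment of 14.3. The *Gjc1* window (chr11:102824723-102824873, plus strand letters, the gene being on the minus strand) is shown because 76 of its 151 bases lie in runs of at least 3 CA or TG units. Such runs cover at least 30 bases in 28.8% of all Foxa2 windows and in 0.349% of T windows. Their part in the Foxa2 peaks was not tested.
Gjc1 Foxa2 summit: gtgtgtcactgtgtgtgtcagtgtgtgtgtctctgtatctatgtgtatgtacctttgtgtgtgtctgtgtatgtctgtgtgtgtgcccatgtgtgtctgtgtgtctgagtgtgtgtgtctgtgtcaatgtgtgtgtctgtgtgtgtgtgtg

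The beta connexins of epithelia were at the edge of detection in the embryo. *Gjb5* was at 0 and 0.378 FPKM in NotoPs, 0 and 1.61 in MPs and 3.87 and 4.18 in trunk notochord, each of the trunk values resting on 3 reads. Counting error spanned the E9.5 ratio of trunk notochord to NotoPs, 11.1-fold with an interval of 0.889 to 581, and no fold is given at E8.5, where both libraries were at or under 3 reads. In culture *Gjb5* was at 0.862, 0.600 and 0.434 FPKM in NMPdiff, NotoPdiff and MPdiff cells. *Gjb2* reached 4.94 FPKM (5 reads) in E9.5 trunk notochord and at most 1.46 elsewhere. The alpha connexins of vessels, *Gja4* and *Gja5*, were at 0 in all embryonic libraries.

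*Cdh1*, E-cadherin, was higher in notochord than in mesoderm progenitors and lower at E9.5 than at E8.5 in all 3 embryonic populations. It stood at 29.5 FPKM (139 reads) and 3.36 (23 reads) in E8.5 and E9.5 NotoPs, 5.88 (10 reads) and 0.933 (9 reads) in MPs, and 37.4 (75 reads) and 11.3 (21 reads) in trunk notochord. Cultured cells had 114 FPKM in NMPdiff, 88.5 in NotoPdiff and 11.1 in MPdiff cells. NotoPs exceeded MPs 5.05-fold (2.67 to 10.8) at E8.5 and 3.60-fold (1.60 to 8.84) at E9.5, where the difference stayed under 3-fold once 1 FPKM was added. From E8.5 to E9.5 the level was lower 8.85-fold (5.67 to 14.4) in NotoPs, 6.31-fold (2.30 to 17.5) in MPs and 3.30-fold (2.01 to 5.65) in trunk notochord. At E9.5 trunk notochord exceeded NotoPs 3.37-fold (1.77 to 6.37), while at E8.5 the ratio was 1.26 (0.937 to 1.68). *Epcam*, another epithelial adhesion gene, was likewise lower at E9.5 in each population, at 18.3 and 8.12 FPKM in NotoPs, 22.7 and 0.444 in MPs and 25.6 and 2.31 in trunk notochord. The summed gut endoderm genes were lower at E9.5 in NotoPs, at 43.0 and 16.8 FPKM, and in MPs, at 87.5 and 1.97. In trunk notochord the sum was higher at E9.5, at 63.1 and 142, with *Afp* at 2.11 and 95.7. *Apoa1* was also higher there, while *Ttr*, *Trf*, *Cpn1* and *Foxa3* were lower. In NotoPs *Cpn1* was at 30.0 and 2.16 FPKM, while *Trf* was higher at E9.5, at 5.26 and 14.4.

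In culture *Cdh1* was 8.00-fold higher (7.51 to 8.52) in NotoPdiff than in MPdiff cells, and 10.3-fold higher (9.69 to 11.0) in NMPdiff than in MPdiff cells. Both comparisons share the MPdiff library. *Cdh1* (chr8:106603351-106670246, plus strand) had 1 T peak (chr8:106635744-106636048), with a summit 32540 bp into the gene and a fold enrichment of 8.06, and no Foxa2 peak by the rule. The 151 bp around its summit (chr8:106635816-106635966, plus strand letters) are shown because they hold GGTGTGA, in capitals.
Cdh1 T summit: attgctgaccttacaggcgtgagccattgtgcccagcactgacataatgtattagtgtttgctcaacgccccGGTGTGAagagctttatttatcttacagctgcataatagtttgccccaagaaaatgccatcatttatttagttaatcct

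*Cdh2*, N-cadherin, was the most highly expressed of the 73 genes in 5 of the 6 embryonic libraries, the E9.5 MP library with its *Gja1* being the exception. It was at 225 and 216 FPKM in NotoPs, 105 and 139 in MPs, 130 and 131 in trunk notochord, and 82.1, 99.5 and 72.0 in NMPdiff, NotoPdiff and MPdiff cells. NotoPs were above MPs 2.14-fold and 1.55-fold, and above trunk notochord 1.73-fold and 1.65-fold, so no comparison reached 3-fold. *Cdh2* exceeded *Cdh1* in every embryonic library, by 7.63-fold and 64.2-fold in NotoPs, 17.9-fold and 149-fold in MPs, and 3.48-fold and 11.6-fold in trunk notochord. Only in NMPdiff cells was *Cdh1* above *Cdh2*, 1.39-fold, and in NotoPdiff cells *Cdh2* exceeded *Cdh1* 1.12-fold, against 6.51-fold in MPdiff cells. No embryonic library had them within 3-fold of each other. *Cdh2* had 2 T peaks and 3 Foxa2 peaks, all in its gene body.

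*Cdh3*, P-cadherin, was higher in notochord cells than in MPs at both stages. It stood at 18.9 FPKM (81 reads) and 31.4 (197 reads) in NotoPs, 3.86 (6 reads) and 7.82 (69 reads) in MPs, 24.5 (45 reads) and 30.6 (52 reads) in trunk notochord, and 3.55, 6.50 and 1.50 in NMPdiff, NotoPdiff and MPdiff cells. Every embryonic notochord library was above both MP libraries. NotoPs exceeded MPs 4.91-fold (2.16 to 13.8) at E8.5 and 4.02-fold (3.04 to 5.37) at E9.5, and NotoPdiff exceeded MPdiff cells 4.34-fold (3.60 to 5.27). Trunk notochord and NotoPs did not differ beyond counting error, with intervals of 0.879 to 1.89 around the E8.5 ratio and 0.703 to 1.33 around the E9.5 ratio. At E9.5 *Cdh3* was 9.37-fold above *Cdh1* in NotoPs and 2.71-fold above it in trunk notochord, whereas at E8.5 *Cdh1* was 1.56-fold and 1.52-fold above *Cdh3*. In NotoPdiff cells *Cdh1* was 13.6-fold above *Cdh3*. The *Cdh3* gene, which neighbours *Cdh1* on chromosome 8, had no peak of either factor by the rule.

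**Figure D3:**
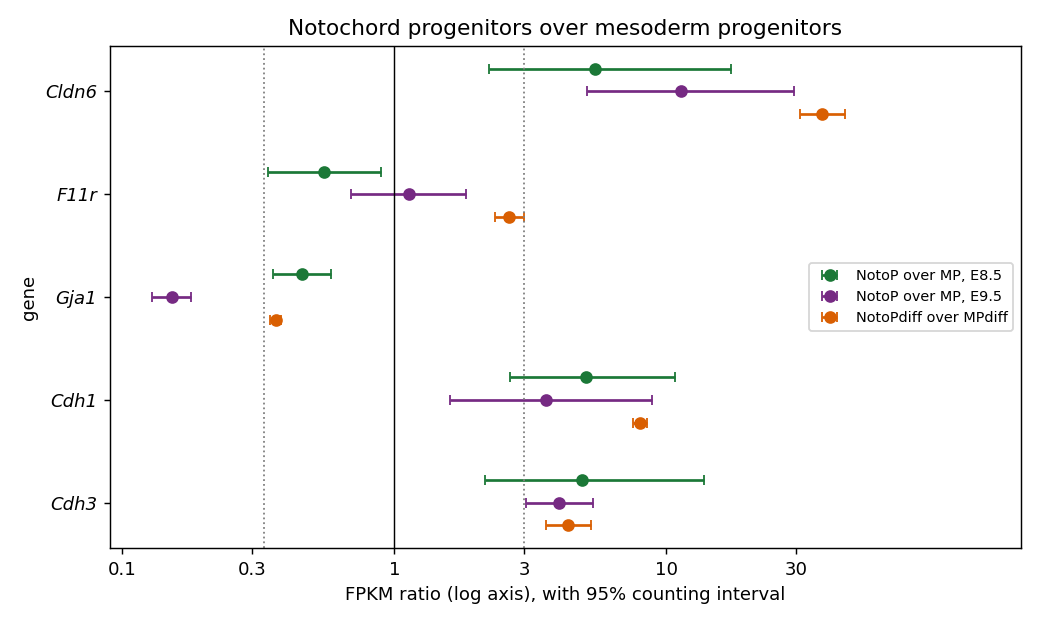
FPKM ratios (horizontal log axis, dotted lines at 3-fold either way) of NotoP over MP at E8.5 and E9.5 and of NotoPdiff over MPdiff for 5 genes (vertical axis), with exact 95% counting intervals as bars and 1 library per condition. *Cldn6*, *Cdh1* and *Cdh3* lie above 1 in all 3 comparisons and *Gja1* below 1, from 0.458 at E8.5 to 0.152 at E9.5, while *F11r* lies on both sides.

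*Cdh11* and *Cdh6*, type II cadherins of mesenchyme and of neural and kidney tissue, set trunk notochord and NotoPs apart in opposite directions. *Cdh11* was at 30.0 and 39.4 FPKM in NotoPs, 11.1 and 37.4 in MPs, and 8.35 and 2.82 in trunk notochord. NotoPs exceeded trunk notochord 3.59-fold at E8.5 and 14.0-fold at E9.5, the trunk values resting on 19.4 to 21.3 and 6.07 to 6.65 reads. The summed mesoderm progenitor genes were likewise higher in NotoPs, at 147 and 132 FPKM against 39.6 and 14.0 in trunk notochord. *Meox1* and *Tcf15* went the other way at E8.5, at 14.9 and 1.01 FPKM in NotoPs against 25.9 and 11.8 in trunk notochord. The part of the mesoderm progenitor genes in the *Cdh11* difference was not tested. In culture *Cdh11* was at 13.5 FPKM in NMPdiff, 2.88 in NotoPdiff and 15.7 in MPdiff cells, 5.46-fold lower in NotoPdiff than in MPdiff cells. NotoPs were thus above MPs 2.71-fold at E8.5 and 1.05-fold at E9.5, whereas NotoPdiff cells were below MPdiff cells. *Cdh6* was at 29.2 and 13.5 FPKM in trunk notochord (109 to 146 and 46.6 to 62.8 reads), at 0 and 2.94 in NotoPs and at 0 and 4.00 in MPs. Trunk notochord exceeded NotoPs 4.61-fold at E9.5, and 3 reads of *Cdh6* would have given 0.257 FPKM in E8.5 NotoPs. Cultured cells had 0.735 FPKM or less of *Cdh6* in NMPdiff and NotoPdiff cells and 1.06 in MPdiff cells. *Cdh11* had 2 Foxa2 peaks, and *Cdh6* 4 T peaks and 1 Foxa2 peak, none within 5 kb of the gene start. Trunk notochord at E8.5 also had the highest sum of 8 neural tube genes, 40.5 FPKM against at most 11.3 elsewhere. At E9.5 trunk notochord had 3.32. Gut endoderm genes summed to 63.1 and 142 FPKM in trunk notochord, and to 87.5 in E8.5 MPs, where *Cdh6* was at 0. The part of either list in the *Cdh6* values was not tested.

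**Figure D4:**
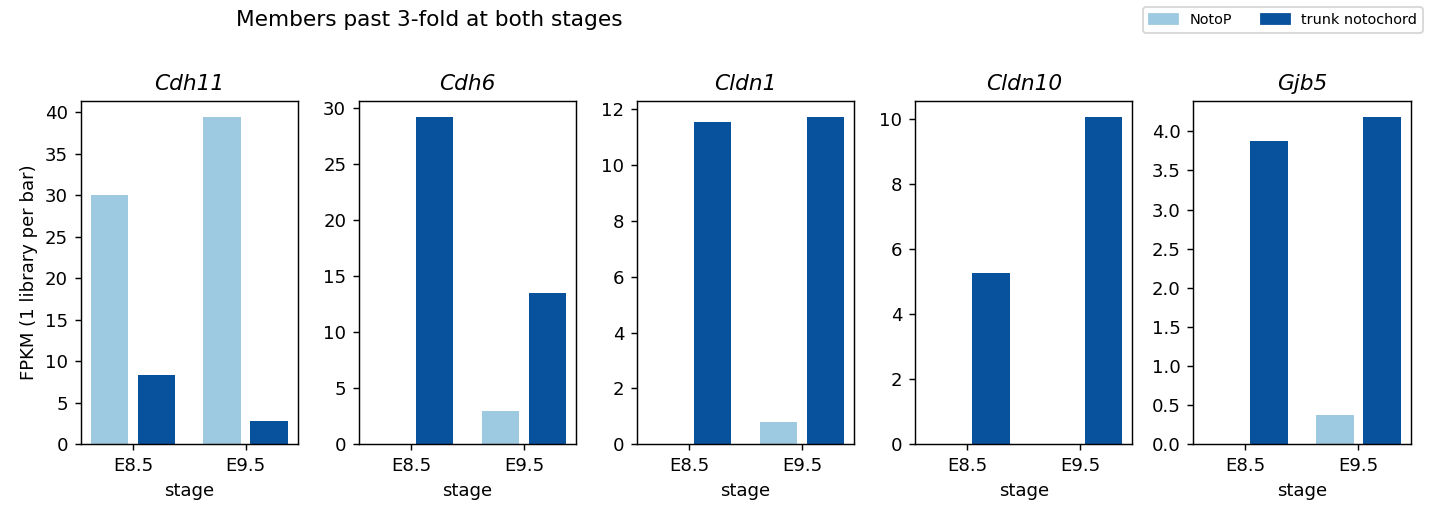
FPKM (vertical axis, own scale for each gene, 1 library per bar) of the 5 genes past 3-fold between NotoPs (light bars) and trunk notochord (dark bars) at both E8.5 and E9.5. *Cdh11* is lower in trunk notochord, 8.35 and 2.82 against 30.0 and 39.4 FPKM, and *Cdh6*, *Cldn1*, *Cldn10* and *Gjb5* are higher, with the bars of *Cldn10* and *Gjb5* resting on about 5 reads or fewer.

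Counted by the 3-fold rule, 2 of the 73 genes, *Cldn6* and *Cdh3*, exceeded 3-fold in NotoPs over MPs both at E8.5 and at E9.5 (2.74%, against 1.31% of all genes), and none was lower at both stages (0.238% of all genes). At E8.5 alone 7 were higher (*Cdh1*, *Cdh3*, *Cdh10*, *Cldn6*, *Cldn9*, *Cldn20* and *Gje1*), 9.59% against 8.83% of all genes, and none was lower against 4.02%. Of these 7, *Cldn20* and *Gje1* rest on 4 and 7 reads in NotoPs and on 0 in MPs. At E9.5 alone 2 were higher against 2.63% of all genes, and *Gja1* was lower against 1.11%. These shares are near the background and are not a result about the group. Among genes with at least 1 FPKM in either library, the median log2 ratio of NotoP over MP was 0.65 for 22 junction genes against 0.15 for all genes at E8.5, and 0.16 for 21 junction genes against 0.05 at E9.5.

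Between trunk notochord and NotoPs, 4 genes were higher in trunk notochord at both stages (*Cdh6*, *Cldn1*, *Cldn10* and *Gjb5*), 5.48% against 0.88% of all genes, and 1 was lower (*Cdh11*), 1.37% against 0.992%. With at least 10 reads required in the higher library, a condition added after the values had been seen, *Cdh6* and *Cldn1* remained, against 0.537% of the 22547 genes found in RefSeq. At E8.5 alone 5 were higher against 4.58% of all genes and 2 lower against 4.17%. At E9.5 alone 8 were higher (the same 4 with *Cdh4*, *Cdh10*, *Cldn20* and *Gjb2*), 11.0% against 4.33%, and 2 lower (*Cdh11* and *Cdh20*) against 5.17%. Of the 8 higher ones, *Cldn20* rests on 1 read in trunk notochord and 0 in NotoPs, and *Gjb2* on 5 and 1. The median log2 ratios over genes of at least 1 FPKM were 0.36 at E8.5 and 0.38 at E9.5 for the junction genes, against 0.05 and 0.01 for all genes.

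Between stages, 4 of the 73 were lower and 1 higher at E9.5 in NotoPs, against 1.99% and 2.3% of all genes. *Cdh1*, *Cdh13*, *Cldn20* and *Gje1* were the lower ones and *Cdh6* the higher. In MPs 5 were lower (*Cdh1*, *Cdh24*, *Cldn3*, *Cldn6* and *F11r*) against 3.23%, and 3 higher (*Cdh6*, *Cdh11* and *Cdh20*) against 6.02%. In trunk notochord 4 were lower (*Cdh1*, *Cdh13*, *Cldn7* and *Cldn11*) against 5.79%, and *Gjb2* was higher against 4.28%. Some of these calls rest on few reads. In E8.5 and E9.5 NotoPs *Cldn20* had 4 and 0 reads and *Gje1* 7 and 1. *Cldn3* had 1 and 0 reads in MPs, and in trunk notochord *Cldn11* had 2 and 0 and *Gjb2* 1 and 5.

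In culture 6 of the 73 were higher in NotoPdiff than in MPdiff cells (*Cdh1*, *Cdh3*, *Cldn1*, *Cldn4*, *Cldn6* and *Cldn7*), 8.22% against 1.55% of all genes, and *Cdh11* was lower, 1.37% against 0.442%. In MPdiff against NMPdiff cells 5 were lower (*Cdh1*, *Cdh20*, *Cldn4*, *Cldn6* and *Cldn7*), 6.85% against 1.48%, and none was higher against 0.901%. In NotoPdiff against NMPdiff cells *Cldn6* and *Cdh13* were higher, 2.74% against 1.31%, and *Cldn4* and *Cdh11* lower, 2.74% against 0.796%. Over genes of at least 1 FPKM the median log2 ratio of the junction genes was 0.75 for NotoPdiff over MPdiff, -0.73 for MPdiff over NMPdiff and 0.18 for NotoPdiff over NMPdiff, against 0.03, -0.04 and 0.00 for all genes. These 3 comparisons share libraries.

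A list of 34 other junction genes, among them catenins, nectins, polarity proteins and desmosomal genes, was set beside the 73. Of the 34, 1 passed 3-fold in NotoPs over MPs at each stage, 2.94% against 1.31% of all genes, and none was lower at each, against 0.238%. This was *Dsp*, desmoplakin of the desmosomes, at 157 and 107 FPKM in NotoPs, 34.9 and 14.0 in MPs, 79.3 and 32.2 in trunk notochord, and 16.3, 84.9 and 22.6 in NMPdiff, NotoPdiff and MPdiff cells. None of the 34 passed 3-fold in the same direction at both stages between trunk notochord and NotoPs, against 0.88% of all genes higher and 0.992% lower in trunk notochord. In NotoPdiff over MPdiff cells 9 of the 34 were higher (*Marveld2*, *Pard6b*, *Crb3*, *Jup*, *Epcam*, *Dsp*, *Dsc2*, *Pkp2* and *Esrp1*), 26.5% against 1.55% of all genes, and none lower against 0.442%. In MPdiff over NMPdiff cells 7 were lower, 20.6% against 1.48%, and 1 higher (*Cgnl1*), 2.94% against 0.901%. *Ctnnb1*, the beta-catenin that classical cadherins bind, led the list in every library at 175 to 271 FPKM.

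Peaks of T and Foxa2 were found at 13 and 29 of the 72 genes that could be placed in the genome, 18.1% and 40.3%, against 13.3% and 26.7% of all genes placed. Gene length differed between the families, and its part in these shares was not tested. Cadherin genes had a median length of 145 kb, and 7 of 23 held a T peak and 14 a Foxa2 peak. Claudin genes had a median length of 3.15 kb, and 2 of 24 held a T peak and 5 a Foxa2 peak. Of 20 connexin genes, of median length 5.95 kb, 2 held a T peak and 6 a Foxa2 peak. Over all 72 the median length was 17.1 kb, against 15.7 kb for all genes. Within 5 kb of the gene start alone, 3 genes had a T peak (*Cldn6*, *Cldn16* and *Gjd2*), 4.17% against 5.47% of all genes, and 10 had a Foxa2 peak (among them *Cdh12*, *Cldn10*, *Cldn16*, *Cldn17*, *Gja3*, *Gjb5*, *Gjc1* and *Gjd3*), 13.9% against 9.18%. Of the 3 genes with a T peak near the start, *Cldn16* was at 0 in all libraries and *Gjd2* never exceeded 0.0249 FPKM. The Foxa2 peak of *Gjb5* had a fold enrichment of 17.0. Without Foxa2 peaks whose windows hold at least 30 bases in CA or TG runs, a condition chosen after the data had been seen, 22 of the 72 genes (30.6%) kept a Foxa2 peak, against 22.2% of all genes, and *Gjc1* and *Gjb5* were among those that lost theirs. *Tjp1* held 1 T peak and 6 Foxa2 peaks.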

How the data were processed

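Of the 21 samples of the series, 11 were used, 9 RNA-seq and 2 ChIP-seq libraries, and the other 10 were not used here. The genes, lists and rules were chosen with earlier results of these data known.

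The authors trimmed the reads, mapped them to mm10 with TopHat2 2.1.1, Bowtie 1.2.2 and strand-aware RefSeq models, collapsed duplicates with molecular identifiers, and deposited FPKM values from Cufflinks 2.2.1 with bias and multi-read correction. Assignment of multiply mapped reads may shift levels between close relatives such as *Cldn6* and *Cldn9*. Of the 9 columns, 0 stayed unused. The ChIP-seq pairs were mapped by the authors with Bowtie 1.3.1, and peaks called per library with MACS3 3.0.0b1 (q-value up to 0.1). Their deposited lists give a fold enrichment over background (a ratio), −log10 of p and q, a score and the summit offset. The score and −log10 p were not used, and −log10 q only for a stricter cutoff.

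FPKM ratios were taken after adding 1 and called at 3-fold over all 23983 genes, with no test, since each condition has 1 library. Reads were recovered from FPKM times RefSeq transcript length over genes with 1 transcript, where 92.7% to 94.1% of values of 1 to 10 reads fell within 0.1 of a whole number. Of the 71 junction genes found in RefSeq, 26 have 1 transcript, and 19 more gave whole numbers with a single length. For the others a range over transcript lengths is given where needed. Gene positions came from GENCODE and sequences from the GRCm38 genome (mm10), counted from 1, and motifs were searched in 151 bp around each summit. Values in all libraries are given for genes of at least 20 FPKM in 1 library, past 3-fold at both stages, or past 3-fold between NotoPdiff and MPdiff cells. Results of some junction genes are not reported here. Other junction genes in the text were picked with their values in view. Alternatives changed the pseudocount, fold, filter, stage, comparator, scaling, peak window and q cutoff. Python 3.11.15, numpy 2.4.6, pandas 2.3.3, samtools 1.23.1 and matplotlib 3.10.9 were used.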

Additional observations from a re-analysis of the deposited data

Results flagged for a closer look

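Opposite differences of at least 2-fold, after adding 1 FPKM, between like contrasts were looked for among all 73 genes. Only the cadherins *Cdh11*, *Cdh6* and *Cdh10* met this rule. None of these differences was tested, since each condition has 1 library. *Cdh11* was higher in NotoPs than in MPs at E8.5 (log2 ratio 1.36) and lower in NotoPdiff than in MPdiff cells (-2.11). The E8.5 MP value rests on 21.8 to 24.0 reads. From E8.5 to E9.5 *Cdh11* was higher in MPs (1.67) and lower in trunk notochord (-1.29), where the E9.5 value rests on 6.07 to 6.65 reads. *Cdh6* was higher at E9.5 in NotoPs (1.98) and in MPs (2.32), both from 0 FPKM at E8.5, and lower in trunk notochord (-1.06). *Cdh10*, a neural type II cadherin, was lower at E9.5 in NotoPs (-1.43; 19 and 7 reads) and higher in trunk notochord (1.16; 4 and 10 reads). Counting error alone spans the trunk difference of *Cdh10*, at 2.70-fold with an interval of 0.779 to 11.8.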

How the results depend on the processing

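No paired analysis was possible because each condition has 1 library. Of 154 alternative values for counts, sums and *Cdh1* over *Cdh2* ratios, 105 stayed within 1.5 times the reported value and 49 moved. Of 510 alternative ratios of named genes 70 moved, all under another pseudocount. Rescaling the libraries moved none of these values or ratios, and shifted the median ratios by at most 0.02 on the log2 scale. None of the ratios was labelled as reversed. A pseudocount added to both values cannot change the sign of a ratio, so only rescaling could have given that label. Sign changes of named gene ratios under 3-fold were not labelled as reversals.

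The share of all genes called moved with the setting too and is given in parentheses. With a pseudocount of 0.1, genes higher in NotoPs than MPs numbered 5 at both stages (3.98%) and 8 at E9.5 (7.89%), with 8 lower at E9.5 (5.30%). Under the same pseudocount 3 were lower in trunk notochord (2.98%), 14 higher (6.66%) and 5 lower (2.79%) in NotoPdiff than MPdiff, and 2 higher (3.34%) and 12 lower (5.92%) in MPdiff than NMPdiff. With a pseudocount of 5 the counts were 1 higher in NotoPs than MPs at both stages (0.346%), 1 at E9.5 (0.592%), 0 higher (0.183%) and 0 lower (0.238%) in trunk notochord, 2 higher (0.367%) and 0 lower (0.113%) in NotoPdiff than MPdiff, and 3 lower in MPdiff than NMPdiff (0.384%). At 2-fold, 1 was lower in NotoPs than MPs at both stages (0.938%), 4 were higher (6.52%) and 2 lower (3.64%) at E9.5, 2 were lower in trunk notochord (2.68%), 11 higher (4.34%) and 4 lower (1.54%) in NotoPdiff than MPdiff, and 1 higher (2.22%) and 10 lower (3.84%) in MPdiff than NMPdiff. At 5-fold, 0 were higher in NotoPs than MPs at both stages (0.413%) and 1 at E9.5 (0.892%), 2 were higher (0.284%) and 0 lower (0.321%) in trunk notochord, 2 higher (0.525%) and 0 lower (0.154%) in NotoPdiff than MPdiff, and 3 lower in MPdiff than NMPdiff (0.484%).

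With E9.5 MPs as comparator at both stages, 1 gene was higher (*Cldn6*, 1.36%) and 1 lower (*Gja1*, 0.550%) in NotoPs. This swap replaces the E8.5 MP library, the shallowest, and changes the stage and the depth of the comparator together. Their parts in these counts cannot be told apart. The E8.5 libraries gave 7 higher (8.83%) and 0 lower (4.02%) in place of the E9.5 ones. Trunk notochord had 8 higher at E9.5 alone (4.33%), 2 lower at either stage alone (4.17% and 5.17%), and 2 higher with at least 10 reads in the higher library (0.537%). Against NMPdiff in place of MPdiff, 2 were higher (1.31%) and 2 lower (0.796%) in NotoPdiff. The gene start window alone gave 3 genes with a T peak and 10 with a Foxa2 peak. The log2 ratio of *Cdh1* over *Cdh2* became -4.72 in E9.5 NotoPs, -3.34 in E8.5 MPs and -4.60 in E9.5 MPs with a pseudocount of 5, and -7.07 in E9.5 MPs with 0.1. Without *Cldn25*, a change chosen after the data were seen, the claudin sums of E8.5 MPs, E9.5 MPs and MPdiff cells were 23.2, 18.2 and 24.3 FPKM. Causes were not tested beyond what each setting does by construction.

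Depth limits the embryonic values, since 3 reads of *Cldn7* would have given 5.94 FPKM in E8.5 MPs and 1.05 in E9.5 MPs. Zeros in these libraries are limits of detection at this depth.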
